A study of Mus musculus with 4 samples.

Results

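The genes of translation initiation factors were followed across 2 sorted populations of cultured mouse CD4 T cells. Members were all genes of the deposited tables whose symbol starts with Eif and a digit, without the eIF2 kinases (Eif2ak) and without pseudogenes (-ps). These were 54 of 23284 gene symbols, lying on 19 chromosomes. Of them, 50 are named as initiation factors or as proteins that bind or resemble them. Some of these, such as Eif1ad, Eif4a3 and Eif5a, are described below by other features or roles. The other 4 (Eif2c1 to Eif2c4) are older symbols of the Argonaute genes Ago1 to Ago4, which act in small-RNA silencing and were kept because the rule takes them. A mean of at least 1 FPKM over the libraries, the level needed for testing, was reached by 51 members. The other 3 were Eif2c4, Eif4e1b and Eif2s3y.

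CD4 T cells are the helper lineage of T cells. They came from spleens of BALB/c mice, an inbred strain, and had been driven toward Th1 cells, the interferon-gamma producing helper type, in medium with interleukin-2 at 15 ng/ml and interleukin-12 at 10 ng/ml. One label gives 4 days of culture and another gives 5. Both populations came out of such cultures and were separated by flow cytometry: CCR7loCD137hi cells, low for the lymph node homing receptor CCR7 and high for the costimulatory receptor CD137, and CCR7hiCD137lo cells, with the opposite pattern. Each population has 2 libraries, numbered 1 and 2, and the labels name no altered gene and no further treatment in either. Nothing says that the 2 libraries of a population came from separate mice or cultures, so p-values measure only the spread between these libraries, which may be technical.

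Translation of most mRNAs begins when the small ribosomal subunit, carrying the initiator tRNA brought by eIF2 and held by eIF1, eIF1A, eIF3 and eIF5, is recruited to the capped mRNA by eIF4E, eIF4G and the helicase eIF4A. It then scans to the start codon, where eIF5 and eIF5B prompt GTP hydrolysis and joining of the large subunit, and eIF2B recharges eIF2 for another round. Naive T cells hold translation low and raise it on activation. The cap-binding step is restrained by the 4E-binding proteins, which mTORC1 switches off by phosphorylation, and the eIF2 step by stress kinases, so much of this control acts on proteins that RNA levels do not show.

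The libraries followed their labels at both genes of the sort. Ccr7 stood at 39.6 and 38.2 FPKM in CCR7loCD137hi and at 93.4 and 118 FPKM in CCR7hiCD137lo, and Tnfrsf9, which encodes CD137, at 158 and 184 FPKM against 0.961 and 6.25 FPKM. FPKM is a fragment count divided by transcript length and library depth, so levels of different genes can be compared. Depth, estimated from the steps between low values, was 0.564 and 0.306 of that of the deepest library in CCR7loCD137hi replicates 1 and 2 and 1 and 0.631 of it in CCR7hiCD137lo replicates 1 and 2, and 3 fragments on a 1 kb transcript correspond to 0.146 to 0.478 FPKM. Summed CD4 T cell markers (6 genes) were at 1199 and 1494 FPKM in CCR7loCD137hi and at 1253 and 1336 FPKM in CCR7hiCD137lo, and 4 Th1 genes summed to 331 and 200 FPKM against 116 and 167 FPKM. Within that sum Ifng stood at 215 and 90.8 FPKM against 15.3 and 27.8 FPKM and Il12rb2 at 45.7 and 53.1 FPKM against 21.5 and 46.2 FPKM. Cxcr3 was at 29.0 and 25.5 FPKM against 48.5 and 56.5 FPKM and Tbx21 at 41.1 and 30.2 FPKM against 31.0 and 36.0 FPKM. These 4 genes thus did not share a direction. Summed CD8 T cell markers (2 genes) were at 12.2 and 3.99 FPKM in CCR7loCD137hi and 2.63 and 4.58 FPKM in CCR7hiCD137lo. Summed NK markers (3 genes) were at 28.7 and 28.9 FPKM against 9.42 and 17.2 FPKM. Nearly all of that was Eomes, which T cells also express, at 26.5 and 28.5 FPKM against 9.42 and 17.2 FPKM, while Ncr1 and Klrb1c reached at most 1.91 and 0.389 FPKM in CCR7loCD137hi and were listed at 0 in CCR7hiCD137lo. B cell markers (4) summed to 4.44 and 0.529 FPKM against 0.0917 and 0.145 FPKM. Myeloid and dendritic cell markers (5, of which 1 was listed at 0 throughout) were at 0.256 and 0.467 FPKM against 0.0648 and 0.0342 FPKM, and erythroid and platelet markers (5, of which 3 were listed at 0 throughout) at 0.776 and 1.56 FPKM, with all 5 listed at 0 in CCR7hiCD137lo. The 4 proliferation genes summed to 415 and 436 FPKM against 577 and 608 FPKM. Their part in the results below was not tested. In such sorted bulk samples, fewer cells of a type and less RNA per cell cannot be told apart.

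No initiation factor gene differed between the populations past the threshold, and most lay close together. In limma's test over 10496 genes with Benjamini-Hochberg adjustment, 0 of 51 members had an adjusted p under 0.05, where 6 of all genes tested (0.0572%) did, 5 higher (0.0476%) and 1 lower (0.00953%) in CCR7loCD137hi. That split was 2 and 0 after quantile normalization and 3 and 0 with short RNA genes left out. The lowest adjusted p of a member was 0.537, for Eif1. An unadjusted p under 0.05 was found for 2 members, Eif1 with the higher and Eif4ebp2 with the lower level in CCR7loCD137hi, against 8.13% of all genes tested.

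The fitted difference, given throughout as log2(FPKM + 1) of CCR7loCD137hi minus CCR7hiCD137lo, was above 0 for 27 members and below 0 for 24, or 52.9% above 0 against 47.9% of all genes. Its median was 0.01 for the members and -0.01 for all genes tested. That sign rests on the scaling and on single libraries: the members' median was -0.02 after quantile normalization and -0.05 with short RNA genes left out. The median over all genes moved the same way, to -0.04 and -0.06, and the members' median stayed above it under both scalings. Without CCR7loCD137hi replicate 1 the members' median was -0.12, with 15 of 51 above 0, against -0.0022 over all genes. Without CCR7loCD137hi replicate 2 it was 0.10, with 40 of 51 above 0, against -0.02 over all genes. Without CCR7hiCD137lo replicate 2 it was -0.03, against 0.02 over all genes. Differences were also small in size, with a median absolute value of 0.11 for the members and 0.16 for all genes, and 43 of 51 members lay within 0.2 of 0, where 58.8% of all genes did. The members were more highly expressed, with a median level per library of 59.2 to 70.5 FPKM against 11.7 to 12.4 FPKM over all genes tested. The part of expression level in the smaller differences was not tested. Without the Argonaute genes, 27 of 48 lay above 0 and the median fitted difference was 0.02.

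The 2 libraries of each population were separated from those of the other for 9 members. The CCR7loCD137hi libraries both exceeded the CCR7hiCD137lo ones for 6 members (Eif1, Eif2d, Eif2s2, Eif3c, Eif3k and Eif4ebp1), where 16.6% of all genes did so. Both lay below for 3 members (Eif1ad, Eif2c3 and Eif4ebp2), where 21.5% of all genes did so. Both counts lay under these background shares, and the remaining 42 tested members had overlapping populations.

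**Figure D1:**
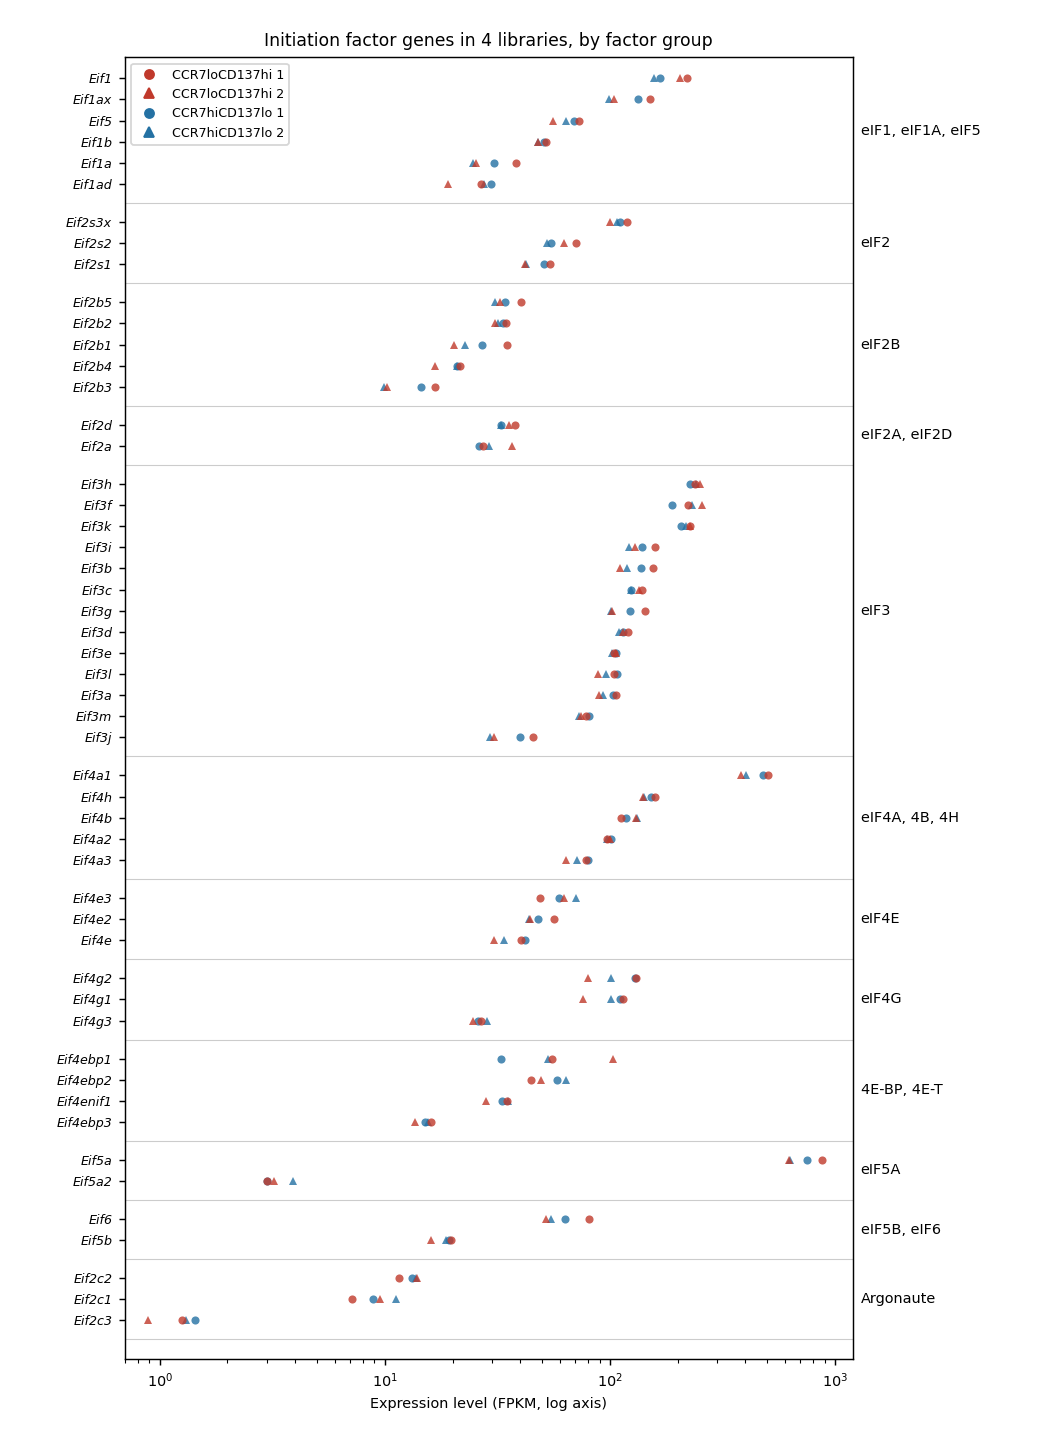
Level of each tested member in the 4 libraries (FPKM, log axis), ordered by factor group and by mean level within a group; red, CCR7loCD137hi; blue, CCR7hiCD137lo; circles, replicate 1; triangles, replicate 2. Levels span from 0.891 FPKM for Eif2c3 to 872 FPKM for Eif5a, and within most genes the red and blue points interleave.

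Comparing the populations within each replicate number gave different pictures for the 2 numbers. CCR7loCD137hi was higher for 38 of 51 members among the libraries numbered 1 (background 52.3% of all genes) and for 22 of 51 among those numbered 2 (background 44.6%). It was higher in both numbers for 18 members (background 33.0% of all genes) and lower in both for 9 (background 35.9%), while 20 were higher in number 1 and lower in number 2 (background 19.2%) and 4 went the other way (background 11.5%). The median difference was 0.07 within number 1 and -0.01 within number 2, against 0.01 and -0.04 over all genes.

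The libraries of 1 population differed more from each other than the populations did within a number. Replicate 2 lay below replicate 1 in both populations for 33 of 51 members, where 29.4% of all genes did. The members' median difference, replicate 2 minus replicate 1, was -0.24 in CCR7loCD137hi and -0.08 in CCR7hiCD137lo, against 0.03 and 0.08 over all genes. In absolute size the median was 0.29 within CCR7loCD137hi and 0.14 within CCR7hiCD137lo, against 0.10 between the populations in number 1 and 0.10 in number 2. Over all genes tested it was 0.239 and 0.190 within the populations, against 0.177 and 0.185 between them, so this order was not particular to the members. CCR7loCD137hi replicate 2 was also the shallowest library, and the part of depth in the differences between replicates was not tested.

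**Figure D2:**
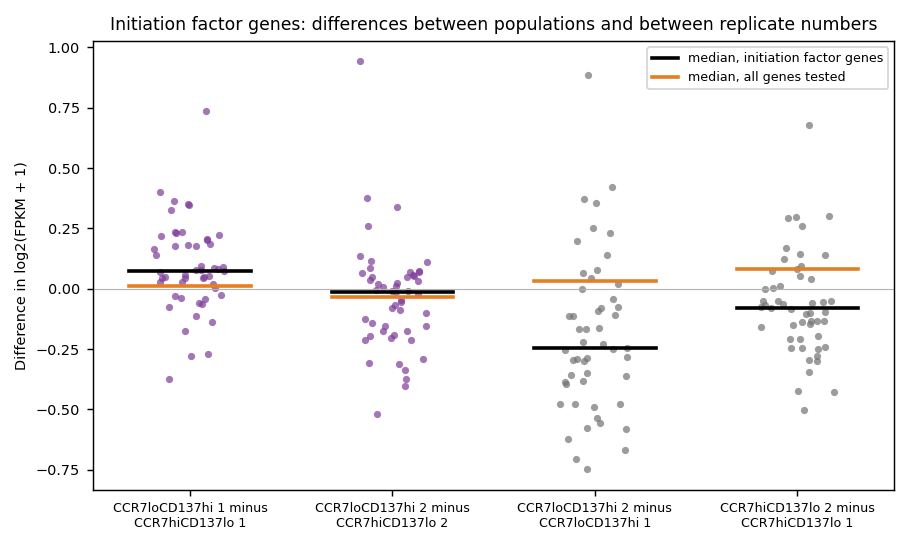
Differences in log2(FPKM + 1) of the 51 tested members, each point 1 gene, between the populations within each replicate number (left, purple) and between replicate numbers within each population (right, grey); black lines, median of the members; orange lines, median of all 10496 genes tested. The members' median is lowest, at -0.24, between the 2 CCR7loCD137hi libraries.

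**Figure D3:**
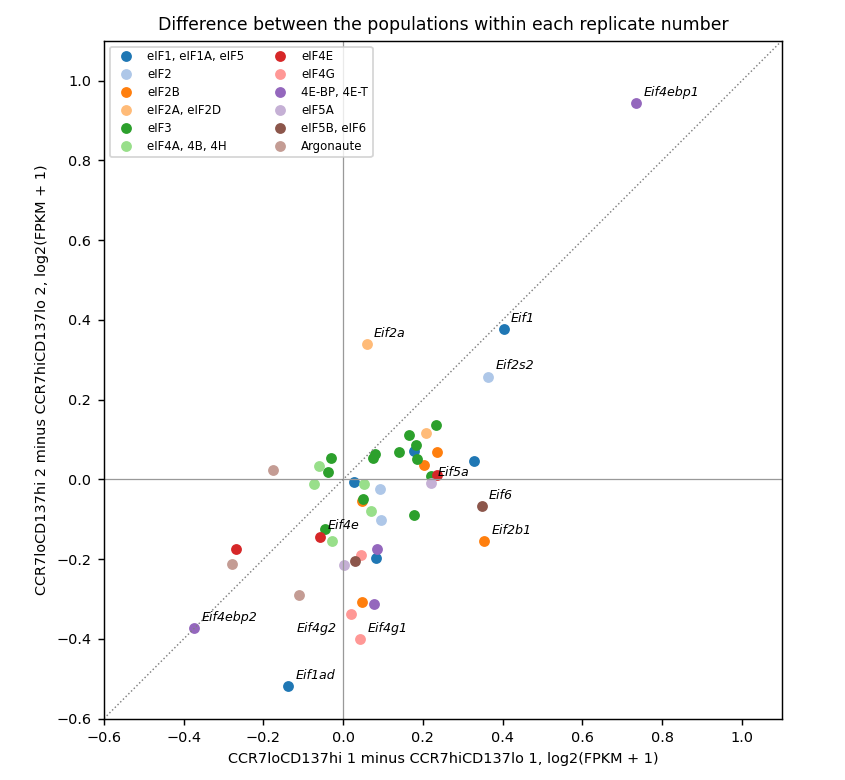
Difference between the populations in log2(FPKM + 1) within the libraries numbered 1 (horizontal) and 2 (vertical), each point 1 member, coloured by factor group; the dotted line marks equal differences. Eif4ebp1, Eif1 and Eif2s2 lie to the upper right and Eif4ebp2 to the lower left, while 20 members lie in the lower right corner, higher in CCR7loCD137hi in number 1 and lower in number 2.

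The bases before the annotated starts of 4 members are shown: Eif1 and Eif4ebp2, the members with the lowest unadjusted p, and Eif4a1 and Eif3f, 2 highly expressed members that hold CACGTG, the letters of the E-box known to be bound by the MYC family. Each is the 250 bases before a transcript start in RefSeq, build GRCm38.p6 (mm10), 5′ to 3′ on the gene's strand, with CACGTG in capitals. For Eif4ebp2, 121 of them lie within the gene's longer RefSeq span and were left out, so 129 bases are shown. The windows lie at chr11:100319699-100319948 (plus strand), chr10:61452791-61452919 (minus), chr11:69672424-69672673 (minus) and chr7:108934165-108934414 (plus).
Eif1: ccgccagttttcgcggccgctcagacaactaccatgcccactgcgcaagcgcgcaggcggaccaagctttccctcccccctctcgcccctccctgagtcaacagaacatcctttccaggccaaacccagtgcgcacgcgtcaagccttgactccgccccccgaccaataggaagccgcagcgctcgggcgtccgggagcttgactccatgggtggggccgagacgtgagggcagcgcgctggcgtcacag
Eif4ebp2: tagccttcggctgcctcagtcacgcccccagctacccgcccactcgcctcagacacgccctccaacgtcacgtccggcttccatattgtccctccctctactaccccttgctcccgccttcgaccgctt
Eif4a1: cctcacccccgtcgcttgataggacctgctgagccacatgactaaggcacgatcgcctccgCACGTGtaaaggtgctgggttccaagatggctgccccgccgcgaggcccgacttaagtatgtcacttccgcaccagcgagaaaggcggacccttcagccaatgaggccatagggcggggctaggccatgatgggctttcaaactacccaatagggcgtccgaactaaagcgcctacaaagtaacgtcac
Eif3f: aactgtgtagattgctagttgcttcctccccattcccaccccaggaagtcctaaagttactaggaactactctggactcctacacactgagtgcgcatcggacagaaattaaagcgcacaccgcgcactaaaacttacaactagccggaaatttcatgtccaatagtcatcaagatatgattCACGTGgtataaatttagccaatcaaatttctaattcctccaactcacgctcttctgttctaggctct
CACGTG begins 189 bases before the start of Eif4a1 and 68 bases before that of Eif3f. The sequences of Eif1 and Eif4ebp2 do not hold it. G and C make up 66.8% of the Eif1, 64.3% of the Eif4ebp2, 58.8% of the Eif4a1 and 43.6% of the Eif3f sequence.

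Full windows of 250 bases were found in RefSeq for 42 members, and none was found for Eif1a, Eif2b3, Eif2c2, Eif3e, Eif3h, Eif3i, Eif4e1b, Eif4e3, Eif4ebp1, Eif4ebp3, Eif4g2 and Eif6. CACGTG, which reads the same on both strands, was in 9 of the 42 windows (21.4%): Eif1b, Eif3f, Eif3k, Eif4a1, Eif4e, Eif4g1, Eif4h, Eif5a and Eif5a2. It was in 1854 of 27025 gene windows (6.86%), and the median GC content was 61.6% for the members and 52.0% for all genes. The 9 genes did not share a direction: 5 had a fitted difference above 0 and 4 below. TGATGNAA, the core of the letters bound by ATF4 with its partners, was searched on both strands and was in 1 of 42 windows (2.38%), that of Eif2s3x, against 3.91% of all genes. These are matches of letters and say nothing of binding in these cells.

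Among the factors that select the start codon, Eif1 had the lowest adjusted p of all members, far from the threshold. Eif1 (mm10 chr11:100319996-100322096) encodes the factor that keeps the scanning complex from settling on wrong codons. It stood at 221 and 204 FPKM in CCR7loCD137hi replicates 1 and 2, against 167 and 157 FPKM in CCR7hiCD137lo. Both CCR7loCD137hi libraries lay above both of the others, and the ratio was 1.32 in number 1 and 1.3 in number 2. The mean was 212 ± 11.6 FPKM in CCR7loCD137hi and 162 ± 6.77 FPKM in CCR7hiCD137lo (SD, n = 2 each), a fitted difference of 0.39 (SE 0.12, 95% interval 0.08 to 0.70; limma adjusted p = 0.537). Its close paralog Eif1b showed no such separation, at 51.8 and 47.9 FPKM against 50.8 and 48.1 FPKM. Reads that fit both copies could have been split in the authors' counting, so both levels are uncertain to that extent.

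Eif1ax and Eif1a, the X-linked and an autosomal gene of eIF1A, which opens the scanning complex together with eIF1, differed more by replicate number than by population. Eif1ax stood at 151 and 104 FPKM in CCR7loCD137hi and at 133 and 98.8 FPKM in CCR7hiCD137lo, and Eif1a at 38.4 and 25.5 FPKM against 30.4 and 24.6 FPKM, with replicate 2 the lower in every case. Eif5, the protein that activates the GTPase of eIF2, was at 73.0 and 55.8 FPKM against 69.0 and 64.0 FPKM. Eif1ad, which encodes a protein with an eIF1A-like domain, was at 26.8 and 19.0 FPKM in CCR7loCD137hi, both below the 29.6 and 27.7 FPKM of CCR7hiCD137lo (fitted difference -0.33, SE 0.20; limma adjusted p = 0.745). That difference was -0.090 without CCR7loCD137hi replicate 2 and -0.57 without CCR7loCD137hi replicate 1. It overlaps Banf1 on the opposite strand. The median over the 6 genes of this group was 0.07, and it was -0.12 without CCR7loCD137hi replicate 1 and -0.06 without CCR7hiCD137lo replicate 2.

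Of the eIF2 subunits, which carry the initiator tRNA, only the beta subunit gene had separated populations. Eif2s2 (mm10 chr2:154871410-154892906) stood at 70.5 and 62.9 FPKM in CCR7loCD137hi, above the 54.5 and 52.4 FPKM of CCR7hiCD137lo. The mean was 66.7 ± 5.38 FPKM against 53.5 ± 1.5 FPKM (SD, n = 2 each), and the fitted difference of 0.31 (SE 0.12, 95% interval -0.02 to 0.64) did not pass limma's test (adjusted p = 0.634). Its span overlaps the nonagouti gene (symbol a) on the opposite strand. Eif2s1, the alpha subunit that stress kinases phosphorylate, was at 54.1 and 41.9 FPKM against 50.7 and 42.6 FPKM, and Eif2s3x, the X-linked gamma subunit, at 119 and 99.9 FPKM against 111 and 107 FPKM, so both overlapped. Eif2s3y, the Y-linked gamma subunit, was listed at 0 in all 4 libraries. The median of the 3 tested genes was 0.03, and it was -0.02 with short RNA genes left out, -0.13 without CCR7loCD137hi replicate 1 and -0.03 without CCR7hiCD137lo replicate 2.

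The 5 subunits of eIF2B, the exchange factor that reloads eIF2 with GTP, all overlapped between the populations. Eif2b5, the catalytic subunit, was the most abundant at 40.3 and 32.5 FPKM in CCR7loCD137hi and 34.1 and 31.0 FPKM in CCR7hiCD137lo. Eif2b1, a regulatory subunit, was at 34.9 and 20.4 FPKM against 27.1 and 22.8 FPKM. Eif2b3 was the least abundant, at 16.8 and 10.2 FPKM against 14.5 and 9.92 FPKM. All 5 were higher in CCR7loCD137hi among the libraries numbered 1, but only Eif2b3 and Eif2b5 were so among those numbered 2. Eif2b2 stood at 34.7 and 30.8 FPKM against 33.5 and 32.0 FPKM, and Eif2b4 at 21.7 and 16.8 FPKM against 21.0 and 21.0 FPKM. The median difference was 0.10, and it was -0.21 without CCR7loCD137hi replicate 1 and -0.04 without CCR7hiCD137lo replicate 2.

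Eif2a and Eif2d, genes of alternative initiator tRNA delivery, were higher in CCR7loCD137hi in both numbers without passing the test. Eif2d stood at 38.1 and 35.6 FPKM against 32.8 and 32.8 FPKM, with separated populations and a fitted difference of 0.16 (SE 0.12; limma adjusted p = 0.774). Eif2a, which overlaps Serp1 on the opposite strand, was at 27.3 and 36.9 FPKM against 26.1 and 29.0 FPKM, with overlapping populations (fitted difference 0.20, SE 0.19; limma adjusted p = 0.828).

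The 13 genes of eIF3, the large scaffold that holds the scanning complex on the small subunit, were expressed at high levels. Their median level was 139 and 111 FPKM in CCR7loCD137hi replicates 1 and 2 and 123 and 110 FPKM in CCR7hiCD137lo, with Eif3j, a loosely bound subunit, lowest in every library at 45.4 and 30.6 FPKM against 39.8 and 29.5 FPKM. The fitted difference was above 0 for 11 of 13 (background 47.9% of all genes), from -0.08 for Eif3l to 0.18 for Eif3f, with a median of 0.07. In both numbers, 8 genes were higher in CCR7loCD137hi (background 33.0%). The eIF3 median stayed above 0 under the other scalings, at 0.02 after quantile normalization and 0.01 with short RNA genes left out. Over all genes the median was -0.04 and -0.06 under these 2 scalings. The eIF3 median was -0.01 without CCR7loCD137hi replicate 1 and -0.02 without CCR7hiCD137lo replicate 2.

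The eIF3 genes with the highest levels were Eif3h, Eif3f and Eif3k. Eif3h and Eif3f, the paired subunits with MPN domains, stood at 240 and 251 FPKM and at 223 and 256 FPKM in CCR7loCD137hi, against 227 and 240 FPKM and 190 and 233 FPKM in CCR7hiCD137lo. Eif3k was at 228 and 228 FPKM against 207 and 218 FPKM, and Eif3c, a core subunit, at 139 and 134 FPKM against 124 and 124 FPKM. Only these last 2 had separated populations, with fitted differences of 0.10 (SE 0.11) for Eif3k and 0.14 (SE 0.11) for Eif3c and limma adjusted p of 0.850 and 0.796. The other 11 subunits overlapped between the populations. Unlike most members, Eif3f and Eif3h had the higher level in replicate 2 in both populations, while 8 of the 13 had the lower one. Eif3k was level between the CCR7loCD137hi libraries and higher in replicate 2 of CCR7hiCD137lo.

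The helicase that unwinds mRNA leaders was abundant and overlapped between the populations. Eif4a1, its main form, was the second most expressed member at 502 and 382 FPKM in CCR7loCD137hi and 479 and 404 FPKM in CCR7hiCD137lo, a fitted difference of -0.0047 (SE 0.19, 95% interval -0.50 to 0.49). Eif4a2, its close paralog, was at 96.7 and 99.7 FPKM against 101 and 97.4 FPKM, and reads that fit both could have been split. Eif4a3, which sits in the exon junction complex, was at 78.2 and 64.0 FPKM against 79.7 and 71.4 FPKM. Of the helicase's cofactors, Eif4b stood at 111 and 131 FPKM against 117 and 132 FPKM and Eif4h at 158 and 141 FPKM against 152 and 142 FPKM. The fitted difference was below 0 for 4 of these 5 genes, from -0.09 for Eif4a3 to 0.02 for Eif4h. The group median of -0.01 was 0.0020 under median ratio scaling, 0.01 without CCR7hiCD137lo replicate 1 and 0.05 without CCR7loCD137hi replicate 2.

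The cap-binding protein gene Eif4e (mm10 chr3:138526191-138557599) did not separate the populations. It stood at 40.3 and 30.6 FPKM in CCR7loCD137hi and 42.0 and 33.9 FPKM in CCR7hiCD137lo, with replicate 2 the lower in both. The mean was 35.4 ± 6.87 FPKM against 37.9 ± 5.73 FPKM (SD, n = 2 each), a fitted difference of -0.10 with a 95% interval of -0.63 to 0.43 (SE 0.20; limma adjusted p = 0.924). Eif4e2, a cap-binding homolog known as a repressor, was at 56.7 and 44.0 FPKM against 48.1 and 43.7 FPKM. Eif4e3, a further homolog, was at 48.9 and 62.9 FPKM against 59.2 and 71.0 FPKM and was the lower in CCR7loCD137hi in both numbers (fitted difference -0.22, SE 0.18; limma adjusted p = 0.806). That difference was -0.044 without CCR7loCD137hi replicate 1, -0.40 without CCR7loCD137hi replicate 2, -0.35 without CCR7hiCD137lo replicate 1 and -0.092 without CCR7hiCD137lo replicate 2. Eif4e1b, known from oocytes, was at 0.093 FPKM in CCR7loCD137hi replicate 2, under the level of 3 fragments on 1 kb there, and listed at 0 in the other libraries. The median of the 3 tested genes was -0.10, and it was 0.05 without CCR7hiCD137lo replicate 1 and 0.09 without CCR7loCD137hi replicate 2.

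The eIF4G scaffolds, which bridge the cap-binding protein and eIF3, were lowest in 1 CCR7loCD137hi library. Eif4g1, the main scaffold, stood at 114 and 75.9 FPKM in CCR7loCD137hi and 111 and 101 FPKM in CCR7hiCD137lo. Eif4g2, a scaffold without the eIF4E-binding site, was at 131 and 80.1 FPKM against 129 and 102 FPKM. Replicate 2 of CCR7loCD137hi was thus the lowest of the 4 libraries for both genes and CCR7hiCD137lo replicate 2 was the next. Eif4g3 was at 26.9 and 24.8 FPKM against 26.0 and 28.4 FPKM. All 3 genes were higher in CCR7loCD137hi in number 1 and lower in number 2. Their median fitted difference was -0.16, with -0.47 without CCR7loCD137hi replicate 1 and 0.11 without CCR7loCD137hi replicate 2, and the difference of Eif4g1 had a 95% interval of -0.78 to 0.42 (limma adjusted p = 0.872).

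The 4E-binding proteins, the inhibitors that occupy eIF4E until mTORC1 phosphorylates them, were the group whose members lay furthest apart from each other. Eif4ebp1 (mm10 chr8:27260327-27275656) stood at 55.2 and 103 FPKM in CCR7loCD137hi and at 32.8 and 53.0 FPKM in CCR7hiCD137lo. Both CCR7loCD137hi libraries lay above both of the others, by a narrow margin between the lower of them and CCR7hiCD137lo replicate 2. The ratio was 1.68 in number 1 and 1.94 in number 2, and in both populations replicate 2 was the higher. The mean was 79.0 ± 33.7 FPKM against 42.9 ± 14.3 FPKM (SD, n = 2 each). Its fitted difference of 0.84 was the largest of the 51 members, with a wide error (SE 0.39, 95% interval -0.19 to 1.87; limma adjusted p = 0.685), and it was 0.40 without CCR7loCD137hi replicate 2 and 1.28 without CCR7loCD137hi replicate 1. Its levels ran in the reverse order of library depth, and both CCR7loCD137hi libraries were shallower than both CCR7hiCD137lo libraries. The approximate fragments behind these levels were nearly equal, at 1146 and 1161 in CCR7loCD137hi and 1207 and 1232 in CCR7hiCD137lo. The part of depth in the difference of Eif4ebp1 was not tested.

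Eif4ebp2 (mm10 chr10:61432497-61452669) lay the other way. It stood at 44.7 and 49.3 FPKM in CCR7loCD137hi and at 58.2 and 64.1 FPKM in CCR7hiCD137lo, with both CCR7loCD137hi libraries below both of the others and a ratio of 0.768 in number 1 and 0.769 in number 2. The mean was 47.0 ± 3.26 FPKM against 61.1 ± 4.21 FPKM (SD, n = 2 each), a fitted difference of -0.37 (SE 0.13, 95% interval -0.72 to -0.03; limma adjusted p = 0.605). Eif4ebp3 was low and overlapping, at 16.1 and 13.7 FPKM against 15.1 and 15.6 FPKM, and Eif4enif1, which carries eIF4E into the nucleus, was at 35.0 and 28.3 FPKM against 33.1 and 35.4 FPKM. Eif4ebp3 shares its span with a second annotated gene on the same strand, and Eif4enif1 overlaps Drg1 on the opposite one. The median over the 4 genes of this group was -0.08, and it was 0.05 without CCR7loCD137hi replicate 2.

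The balance between the inhibitor genes can be read from their levels per length. Eif4ebp1 was above Eif4ebp2 in both CCR7loCD137hi libraries (ratios of 1.23 and 2.09) and below it in both CCR7hiCD137lo libraries (0.563 and 0.827). This ratio also fell as library depth rose, from 2.09 in the shallowest library to 0.563 in the deepest. The part of depth in it was not tested. Relative to Eif4e, Eif4ebp1 stood at 1.37 and 3.36 in CCR7loCD137hi and at 0.780 and 1.57 in CCR7hiCD137lo, so the populations overlapped in this ratio. The 3 binding protein genes summed to 116 and 166 FPKM in CCR7loCD137hi and to 106 and 133 FPKM in CCR7hiCD137lo, and per Eif4e to 2.88 and 5.42 against 2.53 and 3.92, again with overlap. These ratios were chosen after the values were seen and carry no test.

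**Figure D4:**
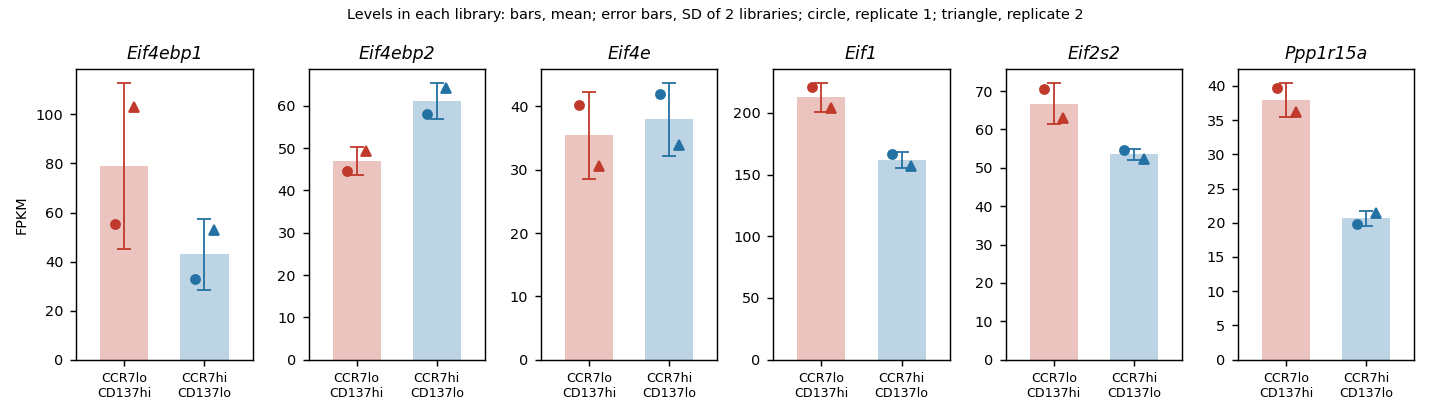
Levels (FPKM, linear axis from 0) of Eif4ebp1, Eif4ebp2, Eif4e, Eif1, Eif2s2 and Ppp1r15a in CCR7loCD137hi (red) and CCR7hiCD137lo (blue); bars, mean; error bars, SD of 2 libraries; circles and triangles, replicates 1 and 2. Eif4ebp1 ranges from 55.2 to 103 FPKM within CCR7loCD137hi, Eif4e overlaps, and Ppp1r15a has the lowest adjusted p of these 6 genes, at 39.7 and 36.2 FPKM against 19.9 and 21.5 FPKM.

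Eif5a, the hypusine-bearing factor that helps ribosomes through difficult peptide bonds, was the most expressed member. It stood at 872 and 627 FPKM in CCR7loCD137hi and at 749 and 630.5 FPKM in CCR7hiCD137lo, with replicate 2 lower in both and a fitted difference of 0.11 (SE 0.21, 95% interval -0.44 to 0.65), which was -0.05 after quantile normalization. Its paralog Eif5a2 was at 3.0 and 3.23 FPKM against 3.0 and 3.90 FPKM. Eif6, which keeps free large subunits from joining, was at 81.0 and 52.2 FPKM against 63.4 and 54.8 FPKM, and Eif5b, the GTPase of subunit joining, at 19.7 and 16.0 FPKM against 19.3 and 18.6 FPKM. In Eif6, as in Eif5a, CCR7loCD137hi held both the highest and the lowest library.

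The Argonaute genes under their older symbols lay far below most factors. Eif2c2 (Ago2, the slicing Argonaute) was at 11.5 and 13.9 FPKM in CCR7loCD137hi and 13.2 and 13.7 FPKM in CCR7hiCD137lo, and Eif2c1 at 7.15 and 9.54 FPKM against 8.90 and 11.2 FPKM. Eif2c3 was at 1.26 and 0.891 FPKM, both below the 1.44 and 1.31 FPKM of CCR7hiCD137lo. Eif2c4 ran from 0.015 to 0.250 FPKM over the libraries, under the level of 3 fragments on 1 kb in each. The fitted difference was below 0 for all 3 tested genes (median -0.20, with -0.060 without CCR7loCD137hi replicate 1, where Eif2c2 turned above 0, and -0.094 without CCR7hiCD137lo replicate 2), with limma adjusted p between 0.808 and 0.921.

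Upstream of the eIF2 step, among 6 genes of eIF2 kinases and of the phosphatase subunits that oppose them, 0 passed limma's adjusted threshold. An unadjusted p under 0.05 was found in limma's test for 2 of the 6, where 8.13% of all genes tested had one. Ppp1r15a (GADD34), the stress-induced subunit that directs dephosphorylation of eIF2 alpha, stood at 39.7 and 36.2 FPKM in CCR7loCD137hi and at 19.9 and 21.5 FPKM in CCR7hiCD137lo. Both CCR7loCD137hi libraries were well above the others, with ratios of 1.99 and 1.69 and a fitted difference of 0.84 (SE 0.13; limma adjusted p = 0.307). Eif2ak3 (PERK), the kinase of endoplasmic reticulum stress, was at 8.0 and 10.8 FPKM against 4.89 and 6.23 FPKM (fitted difference 0.66, SE 0.21; limma adjusted p = 0.572). The constitutive subunit Ppp1r15b was at 28.9 and 30.7 FPKM against 27.5 and 28.8 FPKM, and Eif2ak1 at 14.9 and 14.9 FPKM against 15.5 and 18.1 FPKM. Eif2ak2 was at 5.79 and 6.24 FPKM against 4.80 and 7.64 FPKM and Eif2ak4 at 3.17 and 6.12 FPKM against 2.92 and 4.84 FPKM, both with overlapping populations.

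Upstream of eIF4F, among 8 genes of mTORC1, its targets and the MNK and S6 kinases, 0 passed and 0 had an unadjusted p under 0.05. Of these 8, 2 were fitted above 0 and 6 below, where 47.9% of all genes were above 0. Their median was -0.10, and it was below 0 under every scaling. That median was -0.057 without CCR7loCD137hi replicate 2 and -0.031 without CCR7hiCD137lo replicate 2. Mknk2, a kinase of eIF4E, stood at 104 and 89.2 FPKM against 107 and 104 FPKM, and Pdcd4, an inhibitor of eIF4A, at 49.7 and 73.2 FPKM against 58.6 and 66.2 FPKM. Rps6kb1, an S6 kinase, had the lowest fitted difference of the 8, -0.16, at 15.3 and 11.9 FPKM against 16.6 and 14.0 FPKM. Of 9 poly(A)-binding, helicase and recycling genes, 0 passed and 4 were fitted above 0, with 7 above 0 without CCR7loCD137hi replicate 2. Pabpc1, the main poly(A)-binding protein, was at 298 and 321 FPKM against 307 and 330 FPKM, and Paip2 at 75.3 and 88.8 FPKM against 71.1 and 82.9 FPKM. The highest fitted difference of the 9 was 0.35 for Pabpc4, at 31.3 and 19.1 FPKM against 22.1 and 16.4 FPKM. The lowest was -0.20 for Ddx3x, at 89.1 and 58.8 FPKM against 93.9 and 74.2 FPKM. Both genes had overlapping populations. Of the mitochondrial initiation factor genes, Mtif2 stood at 10.6 and 9.74 FPKM against 9.96 and 10.7 FPKM and Mtif3 at 3.16 and 3.67 FPKM against 2.90 and 2.89 FPKM, with limma adjusted p of 0.981 and 0.833.

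Of 10 elongation and termination genes, 0 passed limma's adjusted threshold and 8 were fitted above 0 (median 0.14), where 47.9% of all genes were. That median was 0.096 after quantile normalization, 0.092 with short RNA genes left out and 0.094 without CCR7hiCD137lo replicate 1. The median over all genes was -0.043, -0.064 and -0.048 in the same 3 fits. Eef2, the translocase, stood at 1113 and 1378 FPKM in CCR7loCD137hi and 937 and 1116 FPKM in CCR7hiCD137lo and Eef1g, part of the eEF1 complex, at 506 and 450 FPKM against 408 and 394 FPKM. Eef1a1, the most expressed of the 10, was at 4169 and 4814 FPKM against 4071 and 4402 FPKM, with overlapping populations (fitted difference 0.08). Etf1 and Gspt1 were fitted below 0, at -0.116 and -0.119. Of 76 cytosolic ribosomal protein genes tested, 0 passed and 72 were fitted above 0, where 47.9% of all genes were. Their median was 0.16, against 0.01 for the initiation factors, and 46 had both CCR7loCD137hi libraries above both of the others, where 16.6% of all genes did. Rpl41 stood at 4407 and 4301 FPKM against 3436 and 3775 FPKM and Rpl39 at 1898 and 2259 FPKM against 1864 and 2137 FPKM. Rps2 had the highest fitted difference of the list, 0.58 (SE 0.25, limma adjusted p = 0.656), at 26.7 and 40.8 FPKM against 19.5 and 24.1 FPKM. After quantile normalization 47 of 76 were above 0, with a median of 0.05, and with short RNA genes left out 64 of 76, with a median of 0.10. They also ordered the libraries differently: replicate 2 lay above replicate 1 in both populations for 53 of 76 ribosomal protein genes and for 11 of 51 initiation factor genes, where 44.7% of all genes did. The difference between these lists was not tested.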

How the data were processed

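Per the labels' protocols, TRIzol was used for RNA extraction and a stranded TruSeq mRNA kit for the libraries. The authors deposited FPKM values in a separate gene table for each library, with the columns of Cufflinks per the file headers. The submitters' processing notes name build mm10 and Cufflinks 2.0.2, TopHat 1.3.2 and Bowtie 0.12.8, without saying what each did. Annotation, filters and strand use: not given in the sources used here. Reads of the 10 members that overlap a protein-coding gene (Eif1ad, Eif2a, Eif2s2, Eif3j, Eif3m, Eif4a2, Eif4enif1 and Eif5b on the opposite strand, Eif4e3 and Eif4ebp3 on the same) can therefore not be assigned with certainty.

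The labels gave each library's group and number. A symbol with several entries was represented by the one with the highest mean FPKM; no member symbol repeated. Genes with a mean of at least 1 FPKM were tested on log2(FPKM + 1), which understates changes of low genes, with limma 3.58.1 in R 4.3.3 (moderated variances with a trend, two-sided, Benjamini-Hochberg over all 10496 genes, threshold 0.05), checked on simulated data. All changes planted there were larger than any member's fitted difference, so the check does not cover differences of the members' size. Residual degrees of freedom were 2. With 2 libraries on each side, the smallest p of an exact permutation test is 0.333. Depth was estimated from ratios of values under 0.3 FPKM and an assumed fragment length of 200 nt, so it is approximate; floors of 3 fragments cover counting error only. RefSeq and GENCODE on mm10 gave names (49 members matched by symbol, 5 by synonym), overlaps and upstream windows. Tables and plots were made in Python 3.11.15 (matplotlib 3.10.9, pandas 2.3.3, numpy 2.4.6).

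Members, groups and lists were chosen with earlier results of these data known. A rule set which genes are named: the eIF2, eIF2B and 4E-binding protein genes, Eif4e, Eif4g1, Eif4a1, Eif5a and any called gene, and in each other group the 3 most expressed and the 2 with the largest fitted difference among those with a mean of at least 5 FPKM. Further members are given so that each is accounted for. Alternatives were other scalings, pseudocounts and filters, no variance trend, a replicate block, and leaving out each library.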

Additional observations from a re-analysis of the deposited data

How the results depend on the processing

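No initiation factor gene passed the threshold under any of the 12 alternatives that tested it, nor with the Argonaute genes left out, a choice made after seeing the data. The lowest adjusted p of a member was 0.0767, for Eif4ebp1 with a replicate block (0.0767 to 1 over its alternatives, 0.685 without the block). The block, which takes libraries of the same number as a pair, called 42 genes over all genes tested against 6 without it and no member. Deviations of same-numbered libraries from their group means correlated at r = 0.214 across genes; the labels do not say that a number marks a shared origin, so the block was not used in the report. Over all genes, 2 were called after quantile normalization, 3 with short RNA genes left out, 1 with no filter, 2 with no variance trend and 12 to 30 with a library left out. The median of the eIF5A genes moved to -0.12 after quantile normalization and to 0.11 with a minimum of 5 FPKM, which drops Eif5a2.

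Scaling turned the sign of small differences: quantile normalization gave 0.0006 for Eif2b2, -0.017 for Eif4h and -0.046 for Eif5a, median ratio scaling gave 0.013 for Eif2b2, 0.014 for Eif2s3x and 0.012 for Eif4a1, and leaving out short RNA genes gave -0.024 for Eif2s1 and -0.038 for Eif4h.

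With 2 libraries a population, leaving out each library gave medians of -0.12 to 0.10 for the members, -0.12 to 0.26 for the eIF1, eIF1A and eIF5 group, -0.13 to 0.22 for eIF2, -0.092 to 0.093 for eIF4E and -0.47 to 0.11 for eIF4G; the lone library is assumed to vary like the others. Of 39 named genes, 15 kept their sign under every alternative that tested them (all 12, except that Eif2c3 and Eif5a2 fell under the minimum of 5 FPKM), Eif1, Eif2s2, Eif4ebp1 and Eif4ebp2 among them, and 24 did not. With a library left out, fitted differences ran from -0.14 to 0.39 for Eif1ax, -0.013 to 0.41 for Eif2a, -0.28 to 0.47 for Eif2b1, -0.086 to 0.080 for Eif2b2, -0.21 to 0.45 for Eif2b3, -0.31 to 0.045 for Eif2b4, -0.20 to 0.049 for Eif2c2, -0.15 to 0.22 for Eif2s1, -0.13 to 0.12 for Eif2s3x, -0.20 to 0.19 for Eif4a1, -0.23 to 0.051 for Eif4a3, -0.16 to 0.072 for Eif4b, -0.29 to 0.093 for Eif4e, -0.057 to 0.30 for Eif4e2, -0.15 to 0.067 for Eif4ebp3, -0.26 to 0.031 for Eif4enif1, -0.47 to 0.11 for Eif4g1, -0.51 to 0.19 for Eif4g2, -0.063 to 0.10 for Eif4h, -0.25 to 0.13 for Eif5, -0.13 to 0.34 for Eif5a, -0.25 to 0.042 for Eif5a2, -0.23 to 0.054 for Eif5b and -0.17 to 0.45 for Eif6. The cause of these shifts was not tested.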

Other observations

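Eif2s3y, listed at 0 in all 4 libraries, was set beside other Y-linked genes, chosen after its values were seen. Uty was listed at 0 in every library, Ddx3y was at 0.00864 FPKM in CCR7hiCD137lo replicate 2 alone and Kdm5d at 0.00917 FPKM in CCR7hiCD137lo replicate 1 alone, while Xist stood at 95.4 and 114 FPKM in CCR7loCD137hi and at 127 and 133 FPKM in CCR7hiCD137lo.

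Rps27, a ribosomal protein gene named by the rule for its large fitted difference, departed from most of the others in the libraries numbered 1. It was at 23.5 and 894 FPKM in CCR7loCD137hi replicates 1 and 2 and at 270 and 753 FPKM in CCR7hiCD137lo. The ratio was 0.087 in number 1, where 72 of 76 ribosomal protein genes were higher in CCR7loCD137hi. In number 2 it was 1.19, and 67 of 76 were higher there. Rps27 also had replicate 2 above replicate 1 in both populations, as 53 of 76 did. Its spread within each population exceeded the difference between them (limma adjusted p = 0.858).

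The summed FPKM of all 54 initiation factor genes was 1.13% and 0.943% of the library in CCR7loCD137hi replicates 1 and 2 and 1.05% and 0.961% in CCR7hiCD137lo, so both replicates numbered 1 lay above both numbered 2.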
